A study of Homo sapiens with 9 samples.

Results

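PLA2G4C encodes cytosolic phospholipase A2 gamma, and its RNA was higher in HEK293T cells that overexpressed the kinase PLK2 than in cells with an empty vector. It was set beside 7 further genes of phospholipase A2 biology (PLA2G4A, PLA2G4B, PLA2G6, PLA2G12A, PLA2G15, PNPLA8 and PLAA), which asks if that rise is shared within the family. The 8 genes were picked by symbol, out of 17083 genes in the table. PLA2G4C was chosen by its own rise in PLK2 against Vector, so its values are given as a description with no p-value. The other 7 were tested across all genes.

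HEK293T is an established human embryonic kidney line, labelled epithelial and wild type in all 9 libraries. Each of the 3 groups had 3 biological replicates: cells with an empty FLAG vector (Vector), cells overexpressing PLK2-FLAG (PLK2) and cells overexpressing PLK2(D223N)-FLAG, which carries a substitution in the kinase. The labels give no time after transfection and no measure of kinase activity. RNA was selected with oligo(dT) beads and sequenced.

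Phospholipases A2 cut a fatty acid, often arachidonic acid, from the middle position of a membrane phospholipid and leave a lysophospholipid. Cyclooxygenases and lipoxygenases turn free arachidonic acid into prostaglandins and leukotrienes, and acyltransferases put fatty acids back. The family falls into cytosolic group IV enzymes, calcium-independent enzymes of the patatin-like type, small secreted enzymes and a lysosomal enzyme, which share a reaction but not all a common fold.

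Libraries held 14288165 to 16510186 estimated counts. PLK2 itself checked the labels: it was between 2.83 and 4.09 CPM (counts scaled to the library total by the TMM method) in Vector, between 10680 and 13978 CPM in PLK2(D223N) and between 21489 and 26239 CPM in PLK2. Transgene RNA was thus lower in PLK2(D223N) than in PLK2, so the substitution and the level of transgene RNA cannot be told apart in a comparison of these groups. Of 6 epithelial markers, 4 were in the table and all 4 were tested (EPCAM, CDH1, KRT8 and KRT18), with a summed level of 65.4 to 76.6 CPM per library. The sums of macrophage or microglia markers (0.99 to 3.17 CPM), fibroblast markers (12.8 to 15.1 CPM) and endothelial markers (0.48 to 0.99 CPM) were lower. Vector replicate 1 stood apart: its counts differed from Vector replicates 2 and 3 by a chi-square per gene of 17.7 and 10.8, against 1.63 to 2.81 for every other pair within a group. Against the mean of Vector replicates 2 and 3, that library had a median log2 difference of -0.25 for genes of lowest GC content (at most 41.8%). It was 0.18 for those of highest GC content (at least 56.4%). Vector replicate 2, against the mean of Vector replicates 1 and 3, leaned the other way, at 0.17 and -0.14. Its reference holds the outlying replicate 1, which sets part of that lean.

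Of the cytosolic group IV enzymes, the product of PLA2G4C acts without calcium and is held at membranes by a lipid anchor, unlike its calcium-dependent relatives. PLA2G4C (NCBI gene 8605) lies on chromosome 19, from 48047843 to 48110817 on the minus strand (GRCh38, GENCODE release 29). Its estimated counts were 17, 11 and 19 in Vector. They were 24, 14 and 14 in PLK2(D223N), and 85, 91 and 83 in PLK2. As levels these were 1.01, 0.76 and 1.17 CPM in Vector, 1.49, 0.86 and 0.86 CPM in PLK2(D223N) and 5.38, 5.83 and 5.20 CPM in PLK2. All 3 PLK2 libraries lay above all 6 others, and PLK2(D223N) overlapped Vector.

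PLA2G4C was 5.50-fold higher in PLK2 than in Vector, a log2 fold change of 2.46 (SE 0.20, 95% interval 2.03 to 2.89, n = 3 per group). Because the gene was picked for this rise, its size can be overstated. Intervals of PLA2G4C in the comparisons with PLK2 are thus a description and no test. Summed over the libraries of a group, 259 counts against 47 gave a depth-scaled ratio of 5.53, with an exact 95% interval of 4.04 to 7.72 that covers counting error only. Against PLK2(D223N), PLA2G4C was 5.08-fold higher in PLK2, a log2 fold change of 2.35 (SE 0.20, interval 1.92 to 2.77). Between PLK2(D223N) and Vector the log2 fold change was 0.11 (SE 0.28, interval -0.48 to 0.71), with 52 counts against 47 and a ratio of 1.08 (0.715 to 1.64). The 3 comparisons share libraries and are not independent of one another. The PLK2 against Vector value was 2.48 without Vector replicate 1. The small difference of PLK2(D223N) from Vector lay at -0.20 without PLK2(D223N) replicate 1 and at -0.02 without Vector replicate 2. It rose to 0.26 without Vector replicate 3, and to 0.25 without either PLK2(D223N) replicate 2 or PLK2(D223N) replicate 3. Differences inside the interval of -0.48 to 0.71 are not excluded by these libraries.

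In these bulk libraries, more cells with PLA2G4C RNA and more of it per cell cannot be told apart. PLA2G4C overlaps an antisense gene, PLA2G4C-AS1, by 326 exonic bases, and 4.37% of the 50-base words of its longest transcript occur in another gene's transcripts. The strand setting of the counting is not given in the sources used here, so reads from the pair cannot be separated there. PLA2G4C-AS1 is not among the deposited genes under that name, so it was not analysed here.

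**Figure D1:**
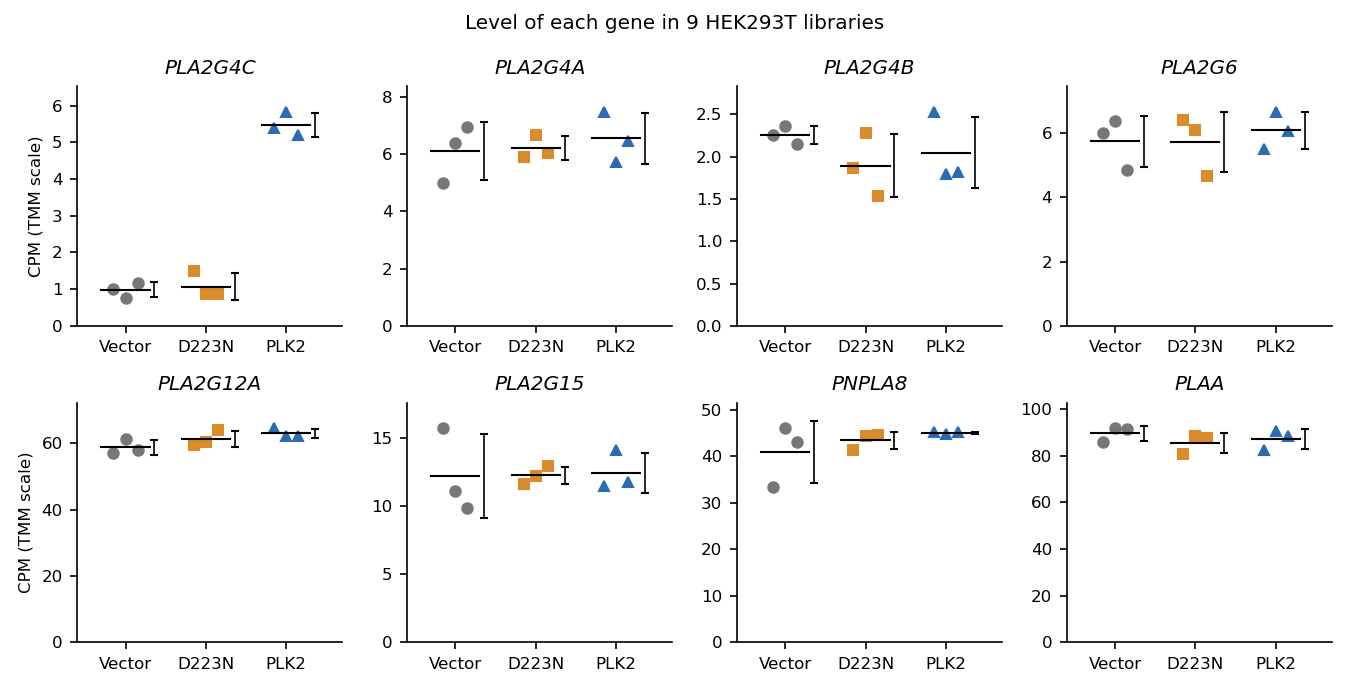
Level of each of the 8 genes (y axis, CPM on the TMM scale, from 0) in each library, by group (x axis, D223N stands for PLK2(D223N)). Points are libraries, the bar is the mean of 3 and the bracket is 1 SD. The PLA2G4C panel has its 3 PLK2 libraries at 5.20 to 5.83 CPM and the 6 others at 0.76 to 1.49 CPM.

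PLA2G4A encodes the alpha enzyme, which calcium recruits to membranes and which prefers phospholipids that carry arachidonic acid. It lies on chromosome 1, 186828953 to 186988981, on the plus strand. Its levels were 4.99, 6.38 and 6.95 CPM in Vector, 5.90, 6.67 and 6.02 CPM in PLK2(D223N) and 7.47, 5.70 and 6.46 CPM in PLK2, with all groups overlapping. The log2 fold change in PLK2 against Vector was 0.10 (SE 0.14, interval -0.19 to 0.40, adjusted p = 0.715). That value was -0.03 without Vector replicate 1, 0.21 without Vector replicate 3 and -0.0013 once trends with GC content and length were removed. PLA2G4A has 39.0% GC, among the genes of lowest GC content. The part of Vector replicate 1 in the PLA2G4A value was not tested further.

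PLA2G4B encodes the beta enzyme and lies on chromosome 15, 41837775 to 41848147, on the plus strand. Its levels were 2.26, 2.36 and 2.15 CPM in Vector, 1.86, 2.28 and 1.54 CPM in PLK2(D223N) and 2.53, 1.79 and 1.82 CPM in PLK2. These groups overlapped too, and the log2 fold change in PLK2 against Vector was -0.14 (SE 0.20, interval -0.56 to 0.29, adjusted p = 0.743). That value was -0.32 without PLK2 replicate 1, -0.05 without PLK2 replicate 2 and -0.06 without PLK2 replicate 3. Counts of PLA2G4B are uncertain: the readthrough gene JMJD7-PLA2G4B holds 3360 of its exonic bases, and 80.9% of its 50-base words occur in another gene. JMJD7-PLA2G4B was at 1.67 ± 0.37 CPM (SD, n = 3) in Vector, 1.58 ± 0.33 CPM in PLK2 and 1.56 ± 0.49 CPM in PLK2(D223N).

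PLA2G6 and PNPLA8 encode calcium-independent enzymes. PLA2G6 encodes the beta enzyme of this type, known from membrane remodelling and inherited neurodegeneration, and lies on chromosome 22, 38111495 to 38205690, on the minus strand. Its levels were 6.00, 6.38 and 4.86 CPM in Vector, 6.40, 6.11 and 4.67 CPM in PLK2(D223N) and 5.51, 6.67 and 6.08 CPM in PLK2. All groups overlapped, with a log2 fold change of 0.09 in PLK2 against Vector (SE 0.14, interval -0.22 to 0.39, adjusted p = 0.777). Of its 50-base words, 19.7% occur in other genes, mainly the antisense gene AL022322.2.

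PNPLA8 encodes the gamma enzyme, found in mitochondria and peroxisomes, and lies on chromosome 7, 108470422 to 108569666, on the minus strand. Its levels were 33.34, 46.06 and 43.15 CPM in Vector, 41.36, 44.32 and 44.68 CPM in PLK2(D223N) and 45.34, 44.87 and 45.14 CPM in PLK2. Vector replicate 1 was the lowest of the 9 libraries and Vector replicate 2 the highest. The log2 fold change in PLK2 against Vector was 0.15 (SE 0.09, interval -0.05 to 0.34, adjusted p = 0.406). It was 0.02 without Vector replicate 1, 0.24 without Vector replicate 2 (adjusted p = 0.0604) and 0.01 once trends with GC content and length were removed. PNPLA8 has 36.5% GC, among the genes of lowest GC content, where Vector replicate 1 was low across genes. Its 3 PLK2 libraries lay above its 3 PLK2(D223N) libraries with a change of 0.05 on the log2 scale (SE 0.09, adjusted p = 0.984).

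PLA2G12A and PLA2G15 stand for the secreted and the lysosomal enzymes. PLA2G12A encodes the group XIIA enzyme, built with a secretion signal, and lies on chromosome 4, 109709989 to 109730077, on the minus strand. Its levels were 57.00, 61.32 and 58.15 CPM in Vector, 59.43, 60.43 and 63.92 CPM in PLK2(D223N) and 64.59, 62.31 and 62.32 CPM in PLK2. The PLK2 libraries all lay above the Vector libraries, by a log2 fold change of 0.10 (SE 0.06, interval -0.02 to 0.22, adjusted p = 0.358). That value was 0.08 without Vector replicate 1, 0.13 without Vector replicate 2 and 0.01 once trends with GC content and length were removed. PLA2G12A has 40.3% GC, also among the lowest. The part of Vector replicate 1 in the PLA2G12A value was not tested further. The gene shares 17.2% of its 50-base words with other genes, mainly AC126283.2. That name is not among the deposited genes, so AC126283.2 was not analysed here.

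PLA2G15 encodes the lysosomal enzyme and lies on chromosome 16, 68245304 to 68261062, on the plus strand. Its levels were 15.69, 11.10 and 9.84 CPM in Vector, 11.61, 12.16 and 12.91 CPM in PLK2(D223N) and 11.46, 14.10 and 11.72 CPM in PLK2. Vector replicate 1 was the highest and Vector replicate 3 the lowest of the 9, so the Vector group spanned both others. The log2 fold change in PLK2 against Vector was 0.02 (SE 0.14, interval -0.28 to 0.32, adjusted p = 0.957), 0.25 without Vector replicate 1 (adjusted p = 0.263) and -0.12 without Vector replicate 3. PLA2G15 has 58.9% GC, among the genes of highest GC content, where Vector replicate 1 was high across genes. PLA2G4B (61.0%) and PLA2G6 (61.0%) are also among these, but their Vector replicate 1 values lay between those of Vector replicates 2 and 3. The part of Vector replicate 1 in the PNPLA8 and PLA2G15 values was not tested beyond these alternatives.

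PLAA, the phospholipase A2 activating protein, is no lipase itself and is known for binding ubiquitin and working with the ATPase VCP. It lies on chromosome 9, 26904083 to 26947463, on the minus strand. Its levels were 85.64, 91.70 and 91.16 CPM in Vector, 80.60, 88.39 and 87.46 CPM in PLK2(D223N) and 82.38, 90.64 and 88.33 CPM in PLK2, with all groups overlapping. The log2 fold change in PLK2 against Vector was -0.04 (SE 0.06, interval -0.16 to 0.09, adjusted p = 0.754).

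In PLK2 against Vector, edgeR's quasi-likelihood test called 0 of the 7 (Benjamini-Hochberg adjusted p below 0.05), 0 had an unadjusted p below 0.05, and the DESeq2 Wald test also called 0. Over all 12924 tested genes, 66 were called (0.511%), 62 of them higher (0.48%), and 2115 had an unadjusted p below 0.05. The count of 66 ran from 13 without PLK2 replicate 2 to 1656 without Vector replicate 2, and that of the 7 stayed at 0. With 0.511% called, 0 of 7 is near the background. The 95% intervals of the 7 genes ran from -0.56 to 0.40 on the log2 scale. Their median log2 fold change was 0.09, against -0.00 over all genes, and 5 of 7 lay above 0, as did 48.9% of all genes. The groups did not overlap for 1 of the 7, PLA2G12A, against 20.1% of all tested genes.

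In PLK2(D223N) against Vector, 0 of the 7 were called by edgeR or by DESeq2 and 0 had an unadjusted p below 0.05. Over all genes 3 were called (0.0232%), and 1102 had an unadjusted p below 0.05. Without Vector replicate 2 there were 347 called and without Vector replicate 1 there were 21, still 0 of them among the 7. Log2 fold changes of the 7 ran from -0.25 (PLA2G4B, SE 0.20, adjusted p = 0.663) to 0.09 (PNPLA8, SE 0.09, adjusted p = 0.713), with intervals between -0.68 and 0.32. The PLA2G4B value was -0.41 without PLK2(D223N) replicate 2 and -0.12 without PLK2(D223N) replicate 3. None of the 7 had groups free of overlap, against 13.9% of all tested genes.

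In PLK2 against PLK2(D223N), edgeR and DESeq2 again called 0 of the 7, 0 had an unadjusted p below 0.05, and 21 of all tested genes were called (0.162%). With 1 library left out, that count ran from 9 without PLK2(D223N) replicate 2 to 317 without Vector replicate 1. It was 502 when the 6 libraries of this comparison were fitted alone, with 0 of the 7 among them. Log2 fold changes lay between 0.02 (PLA2G15) and 0.11 (PLA2G4B), with adjusted p between 0.976 and 0.991 and intervals from -0.33 to 0.55. All 7 lay above 0, against 47.9% of all genes, and PLA2G12A, PLA2G15 and PLAA lay below 0 by limma on TPM. Over all genes 781 had an unadjusted p below 0.05. Groups did not overlap for 1 of 7, PNPLA8, against 20.5% of all tested genes. Removing each library in turn, or changing the scaling, filter or test, gave 133 values per comparison for these 7 genes, of which 0 were called.

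**Figure D2:**
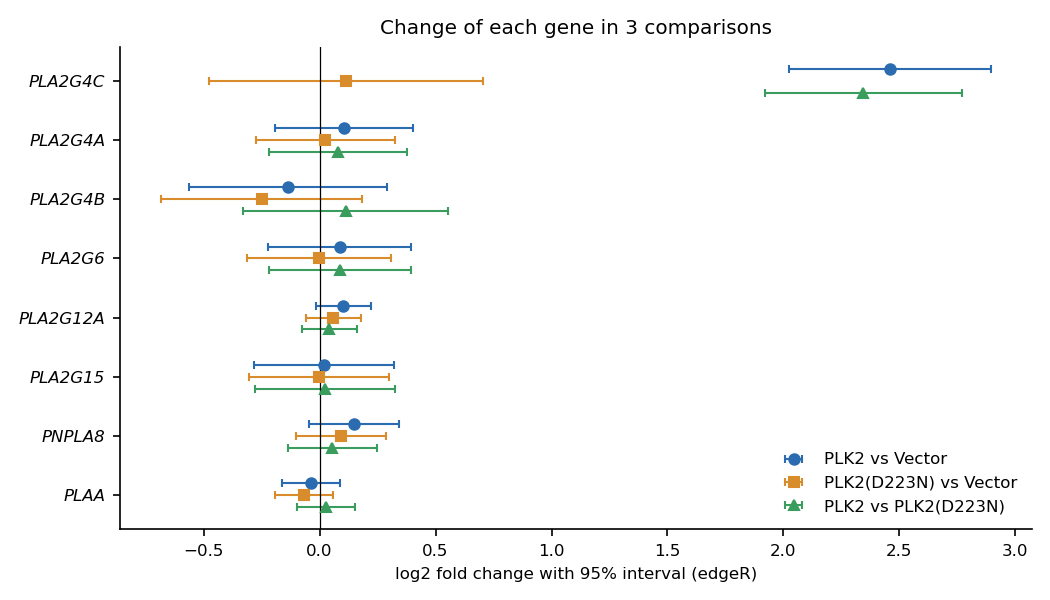
Log2 fold change (x axis) of each of the 8 genes (y axis) in the 3 comparisons, with 95% intervals from the edgeR model, n = 3 libraries per group. PLA2G4C stands at 2.46 and 2.35 in the comparisons that hold the PLK2 group and at 0.11 in PLK2(D223N) against Vector. The intervals of the other 7 genes all include 0. Since PLA2G4C was chosen by its rise in PLK2 against Vector, its distance from 0 with PLK2 is no test.

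Per transcript length, as the deposited TPM (transcript counts scaled by length and library), PLA2G4C was the lowest of the 8 in Vector, at 0.773 ± 0.16 TPM (SD, n = 3). Above it came PLA2G4B at 1.67 ± 0.11, PLA2G6 at 3.61 ± 0.54, PLA2G4A at 4.21 ± 0.80, PLA2G15 at 9.09 ± 2.0, PNPLA8 at 18.7 ± 3.6, PLA2G12A at 21.1 ± 1.5 and PLAA at 37.0 ± 2.7. Of these neighbours, PLA2G6 with PLA2G4A and PNPLA8 with PLA2G12A overlapped between libraries. In PLK2(D223N), PLA2G4C was again lowest at 0.920 ± 0.41 TPM, and overlapped PLA2G4B at 1.45 ± 0.28.

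In PLK2, PLA2G4C was at 4.28 ± 0.055 TPM. It ranked sixth there, above PLA2G6 at 3.76 ± 0.36 and PLA2G4B at 1.53 ± 0.30, and overlapped PLA2G4A at 4.51 ± 0.63. The other 5 genes kept their order from PLAA down to PLA2G4A. PLA2G4C made up 12.5%, 9.47% and 12.97% of the summed TPM of the 3 group IV genes in the Vector libraries and 19.7%, 8.62% and 12.1% in PLK2(D223N). In the PLK2 libraries its share was 37.8%, 45.6% and 41.6%. Summed TPM of the other 7 genes was 95.4 ± 7.2 in Vector, 98.7 ± 1.5 in PLK2 and 99.3 ± 2.8 in PLK2(D223N). PLA2G4C thus went from 0.807 ± 0.18% of the TPM of all 8 genes in Vector to 4.15 ± 0.082% in PLK2, and PLAA, which is no lipase, had the highest TPM in all groups.

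**Figure D3:**
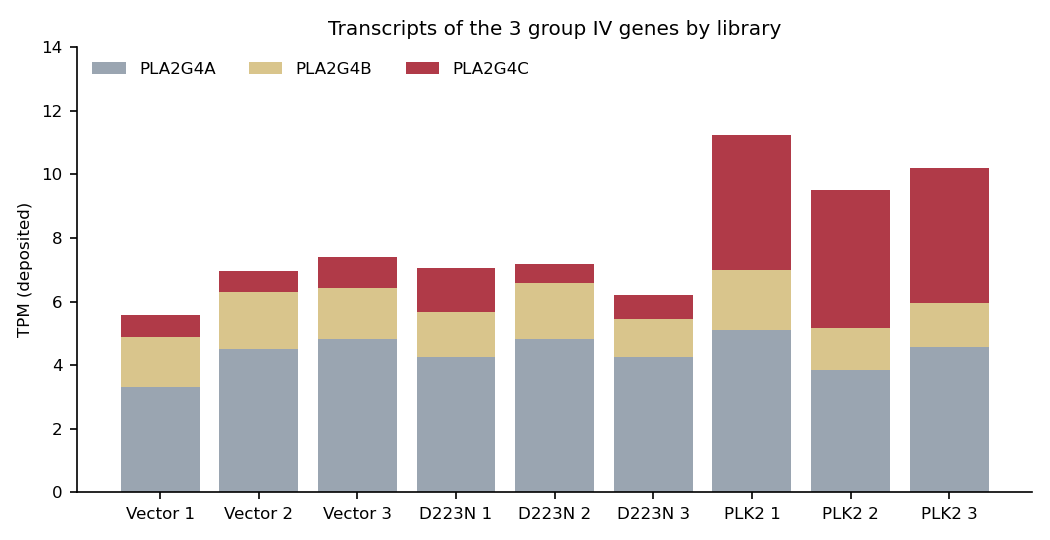
Deposited TPM (y axis, stacked from 0) of PLA2G4A, PLA2G4B and PLA2G4C in each of the 9 libraries (x axis, D223N stands for PLK2(D223N)). The PLA2G4C segment is 0.62 to 1.39 TPM high in the Vector and PLK2(D223N) libraries and 4.24 to 4.34 TPM high in the PLK2 libraries.

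The 3 nearest tested genes on each side of PLA2G4C on chromosome 19 were NOP53, SELENOW and SULT2A1 at lower coordinates and LIG1, ZSWIM9 and CARD8 at higher ones. LIG1, the DNA ligase of replication, starts at 48115445, and its level was 62.0 ± 1.8 CPM in PLK2 against 62.2 ± 1.6 CPM in Vector. Log2 fold changes of the 6 in PLK2 against Vector ran from -0.24 (ZSWIM9, SE 0.11, adjusted p = 0.313) to 0.14 (SULT2A1, SE 0.40, adjusted p = 0.878). By edgeR 0 of the 6 were called in each comparison, which is near its background of 0.511%, 0.0232% and 0.162% of all genes called. DESeq2 also called 0 of the 6 in each comparison, and 143, 9 and 37 of all tested genes. ZSWIM9 in PLK2 against PLK2(D223N), with a change of -0.31 on the log2 scale (SE 0.11, adjusted p = 0.674), was the only value of the 6 genes in the 3 comparisons with an unadjusted p below 0.05.

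Across 5 lists, 144 genes around phospholipase A2 were taken from textbook knowledge. Of these, 131 were in the table and 84 were tested. EdgeR and DESeq2 each called 0 of the 84 in all 3 comparisons. With 0.511%, 0.0232% and 0.162% of all genes called by edgeR, that is near the background. At an unadjusted p below 0.05 there were 7 in PLK2 against Vector (8.33%, against 16.4% of all genes), 5 in PLK2(D223N) against Vector (5.95%, against 8.53%) and 1 in PLK2 against PLK2(D223N) (1.19%, against 6.04%). Their median log2 fold changes were -0.03, 0.00 and -0.03, against -0.00, 0.01 and -0.00 over all genes. Without Vector replicate 2, more genes were called in both comparisons with Vector, in the lists and over all genes. In the lists, 7 of the 84 were called in PLK2 against Vector and 1, PTGR2, in PLK2(D223N) against Vector. Over all genes the calls went from 66 to 1656 and from 3 to 347.

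The list of further phospholipase A2 and patatin-like genes had 13 tested members, with a median log2 fold change of -0.06 in PLK2 against Vector and 4 of 13 above 0. PAFAH1B3, a subunit of an acetylhydrolase of platelet-activating factor, had the smallest p there, at 20.0 ± 1.8 CPM in PLK2 against 23.0 ± 3.5 in Vector (log2 fold change -0.21, SE 0.10, adjusted p = 0.319). PNPLA7, a lysophospholipase, was at 1.31, 0.90 and 1.04 CPM in Vector, 2.48, 1.73 and 1.72 CPM in PLK2(D223N) and 1.20, 1.73 and 1.44 CPM in PLK2. Its PLK2(D223N) libraries lay above its Vector libraries, with a change of 0.85 on the log2 scale (SE 0.24, adjusted p = 0.574). In that comparison the groups did not overlap for 11 of the 84 list genes (13.1%), near the 13.9% of all tested genes. The remaining group IV genes, PLA2G4D, PLA2G4E and PLA2G4F, were too low to test, with at most 1, 4 and 2 counts in a library.

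Among enzymes of eicosanoid synthesis, 16 were tested, with a median of -0.10 in PLK2 against Vector and 4 of 16 above 0. CBR1, a carbonyl reductase that acts on prostaglandins, was at 54.6 ± 2.6 CPM in PLK2 and 62.7 ± 5.6 in Vector (log2 fold change -0.20, SE 0.07, adjusted p = 0.185). PTGR2, a prostaglandin reductase, was at 21.2 ± 0.42 CPM in PLK2(D223N) and 17.5 ± 2.1 in Vector (log2 fold change 0.28, SE 0.08, adjusted p = 0.574). ALOXE3, an epidermal lipoxygenase, was at 0.38 ± 0.17 CPM in PLK2 and 0.66 ± 0.036 in PLK2(D223N) (log2 fold change -0.78, SE 0.37, adjusted p = 0.860). PTGS2, the inducible cyclooxygenase, was singled out after its values were seen. It had 8, 5 and 3 counts in Vector, 6, 5 and 11 in PLK2 and 10, 10 and 8 in PLK2(D223N), and its log2 fold change in PLK2 against Vector was 0.46 (SE 0.45, adjusted p = 0.607). It was 0.76 in PLK2(D223N) against Vector (SE 0.43, adjusted p = 0.582) and -0.31 in PLK2 against PLK2(D223N) (SE 0.40, adjusted p = 0.976). Its counts in PLK2 thus overlapped both other groups. PTGS1, the constitutive cyclooxygenase, and ALOX5, which starts leukotriene synthesis, had at most 6 and 4 counts in a library and were not tested.

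For receptors of eicosanoids and lysophospholipids, 10 genes were tested and 5 lay above 0 in PLK2 against Vector, with a median of -0.01. LPAR3, a receptor of lysophosphatidic acid, was at 22.0 ± 1.9 CPM in PLK2 and 23.2 ± 1.1 in Vector (log2 fold change -0.08, SE 0.08, adjusted p = 0.602). LTB4R, a receptor of leukotriene B4, was at 26.7 ± 0.45 CPM in PLK2(D223N) and 25.3 ± 1.7 in Vector (log2 fold change 0.08, SE 0.07, adjusted p = 0.676). LPAR2, also a receptor of lysophosphatidic acid, was at 1.79 ± 0.44 CPM in PLK2 and 2.28 ± 0.17 in PLK2(D223N) (log2 fold change -0.35, SE 0.24, adjusted p = 0.913).

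Acyltransferases, fatty acid ligases and lysophospholipases formed the list with the most tested genes, 26, with a median of -0.00 in PLK2 against Vector and 13 of 26 above 0. ABHD3, a phospholipase of the hydrolase fold family, was at 26.9 ± 0.73 CPM in PLK2 and 22.7 ± 2.7 in Vector (log2 fold change 0.24, SE 0.08, adjusted p = 0.183). ACSL4, which activates arachidonic acid, was at 213.2 ± 2.2 CPM in PLK2(D223N) and 191.9 ± 22 in Vector (log2 fold change 0.15, SE 0.07, adjusted p = 0.574). ABHD12, a lysophosphatidylserine lipase, was at 38.1 ± 0.69 CPM in PLK2 and 41.7 ± 2.5 in PLK2(D223N) (log2 fold change -0.13, SE 0.07, adjusted p = 0.886).

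Other phospholipases, which cut at other bonds, gave 19 tested genes with a median of -0.00 in PLK2 against Vector and 9 of 19 above 0. PLD6, a mitochondrial member of the phospholipase D family, was at 18.1 ± 0.55 CPM in PLK2, 19.7 ± 1.2 in PLK2(D223N) and 22.7 ± 3.2 in Vector. Its log2 fold change was -0.33 in PLK2 against Vector (SE 0.09, adjusted p = 0.129) and -0.21 in PLK2(D223N) against Vector (SE 0.09, adjusted p = 0.574). PLCB3, a phospholipase C driven by G proteins, was at 25.8 ± 1.6 CPM in PLK2 and 28.9 ± 1.5 in PLK2(D223N) (log2 fold change -0.17, SE 0.07, adjusted p = 0.779).

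**Figure D4:**
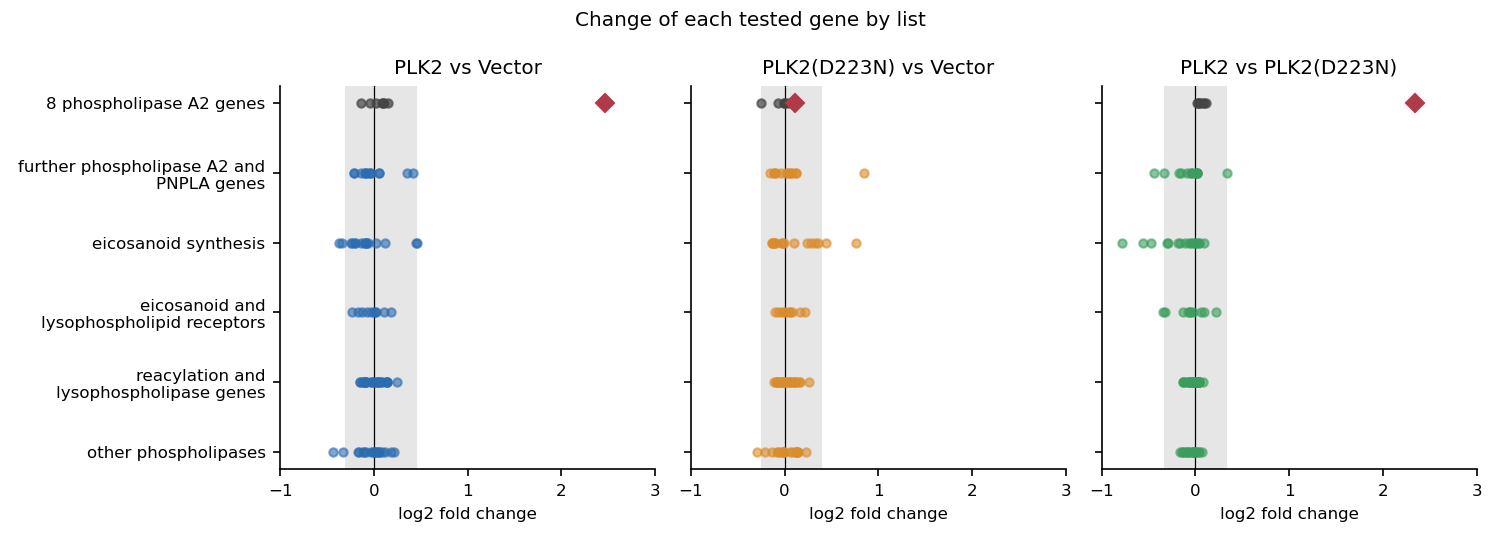
Log2 fold change (x axis) of each tested gene, by list (y axis), in the 3 comparisons. The red diamond is PLA2G4C, and dark points are the other 7 genes set beside it, PLAA among them. Coloured points are the 84 tested genes of the 5 lists, and the grey band holds the middle 95% of all 12924 tested genes. In PLK2 against Vector the 84 lie between -0.44 and 0.46 and PLA2G4C is at 2.46. Its place there was set by how it was chosen and is no further result.

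Likeness of other genes to PLA2G4C was taken as Pearson's r of log2(CPM + 1) with PLA2G4C over the 9 libraries, among the 12294 tested genes that averaged 1 CPM or more, and is a description with no p, since the 3 groups alone set most of it. The 5 highest were DHRS2 (r = 0.99), TNFRSF9 (0.98), NFKB2 (0.97), GADD45A (0.97) and RELB (0.96). DHRS2, a short-chain dehydrogenase, was at 3.73 ± 0.094 CPM in Vector, 3.95 ± 0.20 CPM in PLK2(D223N) and 8.11 ± 0.58 CPM in PLK2. TNFRSF9, a receptor of the TNF family, was at 0.14 ± 0.065, 0.16 ± 0.035 and 3.13 ± 0.42 CPM in the same order, and reached a mean of 1 CPM through the PLK2 group alone. RELB, a subunit of NF-kappaB, was at 1.67 ± 0.23, 1.38 ± 0.14 and 5.77 ± 0.38 CPM. NFKB2, another subunit of NF-kappaB, was at 11.0 ± 1.0, 10.9 ± 0.59 and 16.2 ± 0.34 CPM, and GADD45A, a stress-induced gene, at 21.5 ± 1.2, 22.4 ± 0.38 and 28.3 ± 0.66 CPM. The log2 fold changes in PLK2 against Vector ran from 0.39 (GADD45A) to 4.34 (TNFRSF9). A high level in PLK2 was set by how these genes were picked and is no further result. Of the other members, PLA2G12A had the highest r at 0.52, followed by PNPLA8 at 0.31, PLA2G6 at 0.28, PLA2G4A at 0.22 and PLA2G15 at 0.07. PLA2G4B had an r of -0.08 and PLAA of -0.14.

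**Figure D5:**
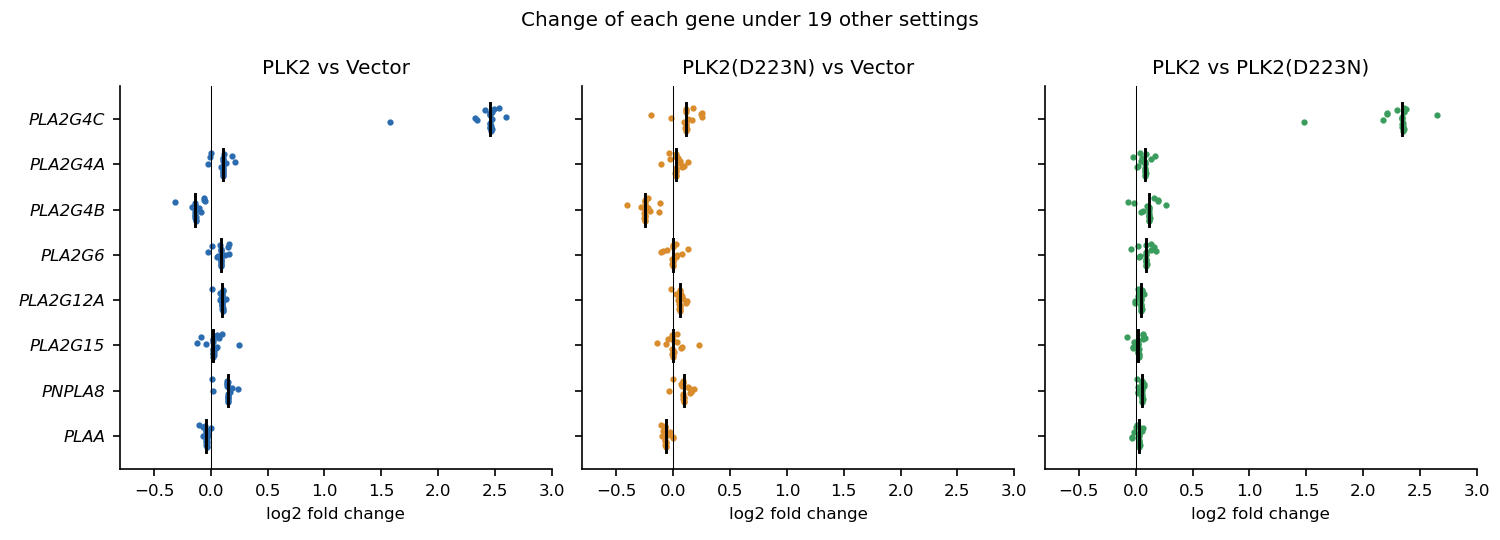
Log2 fold change (x axis) of each gene (y axis) in the 3 comparisons under the main setting (black bar) and 19 other settings (points), which change the scaling, filter, test or libraries. In PLK2 against Vector, PLA2G4C, which was chosen by its rise there, lies between 2.32 and 2.60 save for limma on log2(TPM + 1), at 1.58. No value of the other 7 genes in that comparison is farther from 0 than 0.32.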

How the data were processed

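RNA-seq of 9 HEK293T libraries was analysed. The submitters' processing notes name RSEM 1.3.1, Bowtie2 and DESeq2 1.4.5, with GRCh38.p13 as the build. The annotation is not given in the sources used here. Values deposited by the authors include an estimated count for each gene, which can be fractional. The authors also deposited TPM per gene, per the file headers, used for levels between genes. A further 18 per-library columns (FPKM, scaled counts) were not used.

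Estimated counts were rounded, filtered by filterByExpr (12924 genes left, all 8 members among them), scaled by TMM and fitted in edgeR 4.0.16 (R 4.3.3) with glmQLFit and glmQLFTest, robust, on all 9 libraries with group as the only term. Two-sided p-values were adjusted over all tested genes (Benjamini-Hochberg). The SE is the log2 fold change over the root of F. P-values measure the spread between libraries that the series calls biological replicates. The fit was tested on simulated data.

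The members and lists were chosen with earlier results of these data known. Named are the 8 members, PLK2, from each list the called genes or else the gene with the smallest p per comparison, the 3 nearest tested genes on each side of PLA2G4C and the 5 genes most like it. Alternatives used DESeq2 1.42.0 and limma 3.58.1, other filters and scalings, a replicate block, and each library left out. Removing GC and length trends (loess, span 0.3, GENCODE release 29) was chosen after seeing the data. Libraries with the same number correlated between -0.11 and 0.13 in their deviations, so the numbers were not taken as pairs. The first Vector title has transposed letters and was matched to its column by its number.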

Additional observations from a re-analysis of the deposited data

How the results depend on the processing

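The 7 genes other than PLA2G4C stayed uncalled in each of the 19 settings, at a smallest adjusted p of 0.0604 (PNPLA8, PLK2 vs Vector, without Vector replicate 2), 0.185 and 0.635 in the 3 comparisons. PLA2G4C kept its direction in both comparisons with PLK2 in all 19 settings. These settings refit the libraries by which PLA2G4C was chosen, so its kept direction is no independent support. For PLA2G4C, limma on log2(TPM + 1), whose pseudocount shrinks low genes, gave 1.58 against Vector and 1.48 against PLK2(D223N). Changes of the 7 genes inside their intervals are not excluded.

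The number of genes called moved most. PLK2 vs Vector gave 143 by the DESeq2 Wald test, 136 with no filter, 23 with its 6 libraries alone, 19 with limma at either pseudocount (1 or 0.1) and 374 with GC and length trends removed. PLK2(D223N) vs Vector gave 9, 5 and 8 for DESeq2, no filter and trends removed. PLK2 vs PLK2(D223N) gave 37, 35, 502, 11 (both pseudocounts) and 96 in the order of the first comparison. Leaving out 1 library gave 13 (PLK2 replicate 2) to 1656 (Vector replicate 2), 2 to 347 (Vector replicate 2) and 9 (PLK2(D223N) replicate 2) to 317 (Vector replicate 1). Without Vector replicate 1 the first comparison gave 363 and the second 21. Pathway genes called ran from 0 to 7, and from 0 to 1, in the comparisons with Vector, highest without Vector replicate 2. The causes were not tested.

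The replicate block gave 76, 4 and 20 genes against 66, 3 and 21, sharing 63, 3 and 19. It changed no call of the 7 genes or the pathway lists, and turned PLA2G15 in PLK2(D223N) vs Vector to 0.0034.

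Signs of values near 0 turned, none called. With GC and length trends removed, PLA2G4A was -0.0013 in PLK2 vs Vector, and in PLK2(D223N) vs Vector PLA2G4A was -0.041, PLA2G6 0.021, PLA2G12A -0.018, PLA2G15 0.034 and PNPLA8 -0.0041. With limma at pseudocounts of 1 and 0.1, PLA2G6 was 0.022 and 0.027 and PLA2G15 0.066 and 0.075 in PLK2(D223N) vs Vector. In PLK2 vs PLK2(D223N) limma gave -0.010 and -0.010 for PLA2G12A, -0.022 and -0.025 for PLA2G15 and -0.029 and -0.030 for PLAA. Leaving out 1 library in PLK2 vs Vector gave -0.028 to 0.21 for PLA2G4A, -0.024 to 0.16 for PLA2G6 and -0.12 to 0.25 for PLA2G15. In PLK2(D223N) vs Vector it gave -0.11 to 0.13 for PLA2G4A, -0.11 to 0.12 for PLA2G6, -0.14 to 0.23 for PLA2G15 and -0.036 to 0.19 for PNPLA8. In PLK2 vs PLK2(D223N) it gave -0.024 to 0.17 for PLA2G4A, -0.066 to 0.27 for PLA2G4B, -0.039 to 0.17 for PLA2G6, -0.076 to 0.080 for PLA2G15 and -0.013 to 0.068 for PLAA.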
